A study of Homo sapiens with 12 samples.

Results

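The 3′ UTR share of a gene was the part of its mRNA reads that lay in the 3′ untranslated region, 3′ UTR/(3′ UTR + CDS), in percent, computed in each RNA-seq library. It was followed in 6456 of the 38716 gene symbols listed (16.7%), the genes with at least 100 3′ UTR reads and at least 100 coding sequence (CDS) reads summed over the 3 proliferating libraries, and the same over the 3 senescent libraries. The genes were thus chosen by read sums from the same libraries that are compared here, and those sums are not a finding. A gene whose 3′ UTR was nearly unread in either state could therefore not be among them. At this limit, LMBR1L was just inside with 100 3′ UTR reads in proliferating cells and mean shares of 13.0% and 13.1%, and CEP97 was just outside with 99.8 3′ UTR reads in senescent cells and mean shares of 42.7% and 42.4%.

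The cells were IMR90, a fibroblast line from normal human lung that is long established and stops dividing after many passages. Samples labelled Proliferating (Pro) were set against Senescent (Sen) ones, which had been brought to replicative exhaustion by continuous passaging. Each state had 3 replicate lysates. Each lysate gave 1 RNA-seq library, made from poly(A)-enriched RNA, and 1 Ribo-seq library of ribosome-protected fragments (RPF). The labels name no drug for either state, although the deposited RNA-seq tables of proliferating cells carry a tag resembling DMSO in their names and the sources do not say if it was added. The paper names isolates I90-10 and I90-79 for its cultures of this line, without a record of which gave which of these samples. Whether isolate and state can be told apart here is therefore not known.

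The 3′ UTR follows the stop codon and carries most of the sites through which microRNAs and RNA-binding proteins act on an mRNA. Its end is set by cleavage and polyadenylation, guided by a hexamer (AATAAA, or its common variant ATTAAA) shortly before the cut. Many genes hold several such ends, and use of an early end leaves a short 3′ UTR while use of a late end leaves a long one. A short 3′ UTR leaves fewer reads in the 3′ UTR for each read in the CDS.

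Ends of annotated 3′ UTRs follow for 3 genes whose share rose and whose annotation holds an early and a late end, and then for 3 genes whose share fell, to show how far apart the annotated ends of a gene lie and which letters mark them. Sequences were read from the GENCODE v44 annotation on GRCh37 and are given 5′ to 3′ on the strand of the gene, with the hexamer in capitals. The build behind the deposited tables is not given in the sources used here.
RPL35A, early end, 81 bases after the last coding base, chr3:197682688-197682717, plus strand: atttttaagtggATTAAAaaacttactacc
RPL35A, late end, 840 bases, chr3:197683449-197683478, plus strand: gggatatgctaaAATAAAacaactaaggca
RPL23, early end, 54 bases, chr17:37006346-37006375, minus strand: atatttgtaaaaAATAAAaaaaaaaactaa
RPL23, late end, 2275 bases, chr17:37004122-37004151, minus strand: tttttgacttggATTAAAaaactttatatt
RPS14, early end, 51 bases, chr5:149823804-149823833, minus strand: atattttctgttAATAAAttgccttcatgt
RPS14, late end, 1654 bases, chr5:149822201-149822230, minus strand: gttaaagtctggAATAAAgctagtagtaat
ATP5IF1, its annotated end, 125 bases, chr1:28564580-28564609, plus strand: ctaacagattatAATAAAttgtcatcagtg
ANKRD10, its annotated end, 1100 bases, chr13:111530890-111530919, minus strand: cttcacaaattgAATAAAaaactctcacac
VMP1, earliest of 3 ends, 1643 bases, chr17:57918874-57918903, plus strand: tgaccacaaataAATAAAggaaaactaagc
Each window lies in an annotated 3′ UTR exon of its gene. Only ends with a hexamer are shown, and the later ends of VMP1 held neither hexamer in their last 40 bases. Among ends less than 200 bases apart, a transcript with a hexamer was preferred. A hexamer of either kind stood on the sense strand within the last 40 bases of 56.9% of all 69556 annotated transcripts with a 3′ UTR (AATAAA in 46.0%), and of 82.4% of the 6415 members with a representative transcript. The figure was 76.0% for members whose share rose and 82.8% for those whose share fell. A match describes the letters in this window and does not show that the end was used.

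Between 7170760 and 12836400 reads of an RNA-seq library lay in the 3′ UTR or CDS, of which the 6456 genes took 93.5% of the 3′ UTR reads and 77.6% of the CDS reads. Markers of fibroblasts summed to 42967 to 50381 CPM (counts scaled to library size) in proliferating and 41660 to 48097 CPM in senescent libraries, while epithelial markers summed to 2.16 CPM or less (SFTPC at 0). Leukocyte markers summed to 1.497 to 2.06 CPM in proliferating and 5.34 to 7.75 CPM in senescent libraries (CD3E and LYZ among those at 0). Endothelial markers summed to 72.6 to 82.8 CPM in proliferating and 122 to 141 CPM in senescent libraries, with CDH5 at 0. Endothelial and leukocyte sums did not overlap between the states, and their part in the results was not tested. Among the RNA-seq libraries Sen_RNA 2 stood apart, with the highest share of the 3 senescent libraries in 64.3% of the genes, against 17.6% and 18.0% for the others. Fewer cells of a type and less RNA per cell cannot be told apart in such bulk libraries.

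The median share over the 6456 genes was 35.3%, 35.3% and 36.7% in the proliferating libraries and 35.1%, 38.3% and 35.5% in the senescent ones, and the groups overlapped. The means were 35.8% ± 0.759 and 36.3% ± 1.73 (SD, n = 3 each), a difference of 0.529 percentage points (exact two-sided permutation test, p = 0.8). The sign of this difference in the median 3' UTR share per library rested on 1 library: it was -0.539 points without Sen_RNA 2, and from 0.0801 (without Pro_RNA 2) to 1.02 points (without Sen_RNA 1) when any other library was left out. Pooled over all reads of these genes, the share was 32.2%, 31.8% and 32.7% against 33.4%, 35.8% and 33.5%, so that every senescent library lay above every proliferating one. The difference was 2.05 percentage points, with an exact two-sided permutation p of 0.1, which is the smallest that 3 against 3 libraries allow. In Ribo-seq libraries of the same lysates, the pooled share was 0.679% to 2.58% in 4 libraries, and 6.79% and 18.0% in the 2 shallowest (Pro_RPF 1 and Sen_RPF 2).

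**Figure D1:**
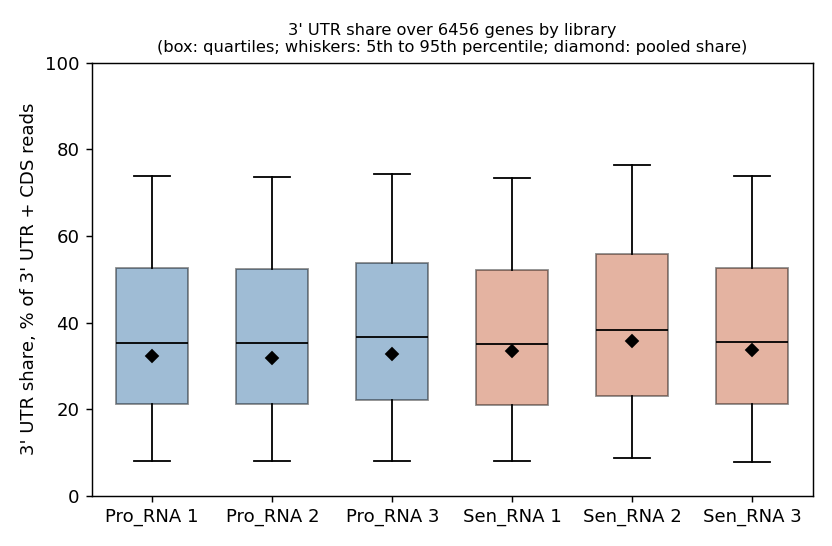
Distribution of the 3′ UTR share (percent of 3′ UTR + CDS reads) over 6456 genes in each of the 6 RNA-seq libraries, as boxes with quartiles, whiskers from the 5th to the 95th percentile and diamonds for the pooled share. The medians of both states overlap between 35.1% and 38.3%, and the diamonds of the senescent libraries lie above those of the proliferating ones.

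Single genes differed widely in their share and little between states. In proliferating cells the mean share ranged from 0.479% to 99.3%, with a median of 35.7%, quartiles of 21.6% and 52.8%, 454 genes under 10% and 1880 genes over 50%. The highest mean over all libraries was that of LOC107984974, at 99.3% in proliferating and 98.5% in senescent cells, and the lowest that of TPM2 (a tropomyosin of muscle and fibroblasts), at 0.490% and 0.337%. LOC107984974 was not matched to the annotation, so its 3′ UTR length and its overlap with other genes are not known. The difference between states had a median of 0.321 percentage points, with the 5th and 95th percentiles at -3.97 and 5.52 points. Within a state, the replicates of a gene typically varied by an SD of 2.28 (Pro) or 2.31 (Sen) points.

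Of the 6456 genes, 157 changed their share, 127 upward and 30 downward in senescent cells, at an adjusted p under 0.15 (edgeR quasi-likelihood test of the 3′ UTR to CDS ratio within libraries, Benjamini-Hochberg over 11553 genes). This was 2.43% of the genes, against 2.19% of all genes tested (1.62% higher and 0.571% lower). The 3 shares of each state did not overlap in 850 genes (13.2%, against 14.2% of all genes tested) and in 155 of the 157 changed ones. Of the 6456 genes, 131 changed and also differed by at least 5 percentage points (105 up and 26 down). Of all 11553 genes tested, 209 did so (1.81%). At a limit of 10 percentage points the count was 69 of the 6456 genes, 51 up and 18 down, and 130 of the 11553 genes tested (1.13%). Read against these backgrounds, the number of changed genes was near that of the table as a whole.
The excess of rises depended on the scaling of the regions: with a scaling factor for each region, 103 genes rose and 57 fell, and with a trend on 3′ UTR length removed, 127 rose and 61 fell. Leaving out a library also left fewer genes to follow, as the read sums then covered fewer libraries. The count was 115 of 5888 without Pro_RNA 1, 67 of 5543 without Pro_RNA 2 and 157 of 5637 without Pro_RNA 3. It was 101 of 5991 without Sen_RNA 1, 94 of 5557 without Sen_RNA 2 and 96 of 5880 without Sen_RNA 3.

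**Figure D2:**
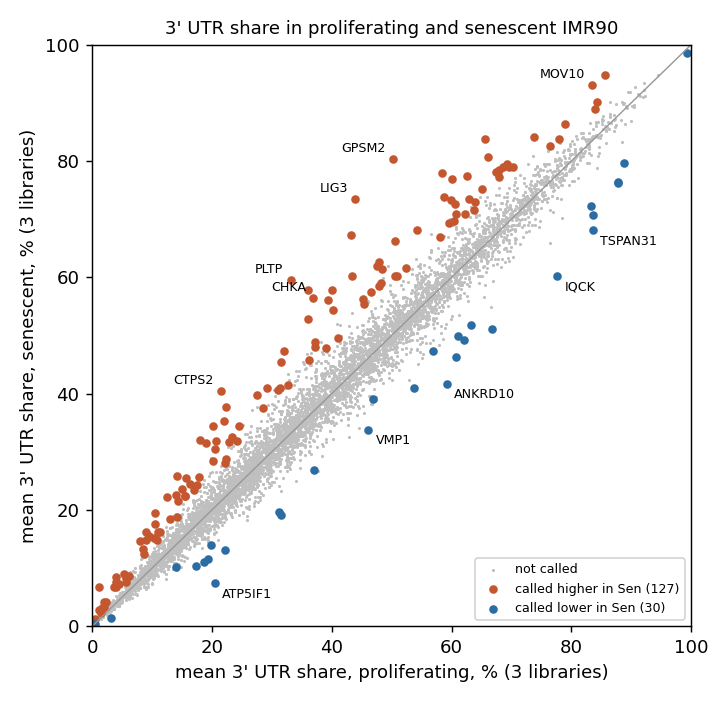
Mean 3′ UTR share in senescent against proliferating cells (percent, 3 libraries each) for 6456 genes, with changed genes in colour and the diagonal marking equal shares. Most genes lie near the diagonal, and 127 coloured points lie above it and 30 below.

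The largest rise was that of GPSM2, which orients the mitotic spindle. Its shares were 48.6%, 50.2% and 51.6% in proliferating and 81.3%, 78.7% and 80.8% in senescent libraries, without overlap. The rise was 30.1 ± 1.176 percentage points (SE, n = 3 each, adjusted p = 1.78e-07 by edgeR). LIG3, a DNA ligase of nuclear and mitochondrial repair, went from 44.2%, 43.99% and 43.5% to 73.0%, 77.1% and 70.3%, and its rise of 29.6 ± 1.98 points had an adjusted p of 8.04e-07 (edgeR).
PLTP, the phospholipid transfer protein of lipoproteins, showed 36.0%, 31.8% and 31.6% against 59.5%, 58.4% and 60.7%, a rise of 26.4 ± 1.58 points (adjusted p = 2.12e-06 by edgeR). On the log2 scale the CDS level fell by 1.62 in GPSM2 and by 1.30 in LIG3, while the 3′ UTR level rose by 0.27 and 0.44. In PLTP the CDS level change was -1.183 and the 3′ UTR level change 0.28. The 3′ UTR of each of these genes shares exon bases with a gene on the opposite strand. The CDS level of that partner was 0.47 higher for GPSM2 (CLCC1) and 0.40 higher for PLTP (CTSA), and its change was -0.53 for LIG3 (RFFL).

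FUZ, a planar polarity effector of cilia, rose from 47.7%, 42.9% and 39.1% to 63.3%, 76.0% and 62.4%, by 24.0 ± 5.06 points. KIF24, a kinesin of the centriole, rose from 39.6%, 39.0% and 29.8% to 54.5%, 58.2% and 60.9%, by 21.8 ± 3.69 points. NCAPH2, a subunit of condensin II, rose from 35.7%, 40.7% and 43.6% to 56.3%, 56.8% and 60.2%, by 17.7 ± 2.599 points. In none of these 3 genes did the states overlap, and all 3 share exon bases with an opposite-strand gene, AP2A1, UBAP1 and SCO2, whose CDS levels were 0.44, 0.34 and 0.35 higher on the log2 scale.
RFC5, a subunit of the clamp loader at the replication fork, had shares of 62.1%, 64.0% and 70.7% against 77.9%, 85.1% and 88.5%. The span of RFC5 overlaps 2 other annotated genes, and the gene WSB2 lies 453 bases downstream, with a CDS level 0.64 higher. RFC5 shares no exon bases with another protein-coding gene. C12orf45, which shares none either, had 49.2%, 61.8% and 64.1% against 79.4%, 74.5% and 80.2%, and its 3′ UTR end lies within the span of ALDH1L2, whose CDS level change was -0.74.

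CHKA, choline kinase alpha, which takes the first step of phosphatidylcholine synthesis, went from 31.5%, 42.4% and 36.8% to 58.6%, 55.4% and 55.2%, with a CDS level change of -1.27 and a 3′ UTR level change of -0.26 that did not pass. Its call was lost without Sen_RNA 2 (adjusted p = 0.155 by edgeR), at equal depth and in DESeq2. CTPS2, which makes CTP from UTP, had shares of 16.4%, 20.3% and 28.0% in proliferating and 41.2%, 38.5% and 41.7% in senescent libraries. Its rise of 18.9 ± 3.53 points had an adjusted p of 0.00237 (edgeR). The 3′ UTR level of CTPS2 rose by 1.32 on the log2 scale, and its CDS level change of 0.16 and its RPF change of -0.26 did not pass. No exon of another protein-coding gene shares bases with its 3′ UTR, but the span of CTPS2 overlaps 2 other annotated genes. The annotation of CTPS2 holds 2 ends, which leave 3′ UTRs of similar length, 1514 and 1821 bases.

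Among the falls, that of ANKRD10, an ankyrin repeat protein, was the largest. Its shares were 56.5%, 61.3% and 59.7% in proliferating and 44.2%, 41.3% and 39.5% in senescent libraries, without overlap. The share fell by 17.5 ± 1.95 points (log2 ratio change -1.04, adjusted p = 0.0029 by edgeR). Its 3′ UTR level fell by 1.01 on the log2 scale, and its CDS level change of 0.14 did not pass.
ATP5IF1, the inhibitor of mitochondrial ATP synthase, went from 22.2%, 20.7% and 18.4% to 7.05%, 8.49% and 6.56%, a difference of -13.1 ± 1.27 points (adjusted p = 3.05e-06 by edgeR). Its CDS level rose by 1.08 and its 3′ UTR level fell by 0.71 on the log2 scale, and its RPF rose by 0.69 (adjusted p = 0.000651 by edgeR). The annotated 3′ UTR of ATP5IF1 is 125 bases long.
VMP1, a membrane protein of autophagosome formation that was chosen after its values were seen, showed 47.4%, 45.3% and 45.6% against 31.4%, 35.7% and 34.3%, without overlap. The share fell by 12.3 ± 1.45 points (adjusted p = 0.00314 by edgeR), with a CDS level 0.80 higher and a 3′ UTR level change of -0.04 that did not pass. The 3′ UTR of none of these 3 genes shares bases with exons of another protein-coding gene. Genes of other types were not checked for shared exons. The spans of ATP5IF1 and VMP1 overlap 2 other annotated genes each, and that of ANKRD10 overlaps 1.

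TSPAN31, a tetraspanin, had shares of 84.5%, 83.2% and 83.2% against 68.5%, 66.7% and 69.0%. Its CDS level rose by 0.62 and its 3′ UTR level fell by 0.75 on the log2 scale. TSPAN31 overlaps CDK4, the kinase of the G1 phase, tail to tail on the opposite strand, and the CDS level change of CDK4 was -1.16. The share of CDK4 itself rose, from 13.9%, 16.0% and 12.3% to 23.3%, 21.0% and 23.3%, a rise of 8.47 ± 1.31 points.
IQCK fell from 82.8%, 76.8% and 73.4% to 55.4%, 65.1% and 60.2%, and GGCX, the carboxylase of vitamin K dependent proteins, fell from 53.6%, 56.3% and 51.4% to 39.7%, 43.2% and 39.8%. Both overlap an opposite-strand gene whose CDS level was lower, GPRC5B by a log2 change of -1.27 and MAT2A by one of -1.12.
The other falls among the 10 largest were those of FZD4 (a Wnt receptor), ASTN2 (a membrane protein of neuronal migration), OSGIN2, ANKRD42 and TVP23C-CDRT4, a readthrough symbol that shares its 3′ UTR with CDRT4. FZD4 went from 61.8%, 59.8% and 64.8% to 49.9%, 46.2% and 51.8% with a CDS level 1.04 higher, and its 3′ UTR end lies within the span of PRSS23, whose CDS level was 1.94 higher. The differences of the other 4 were -15.7, -14.4, -13.0 and -12.4 points in that order. The 3′ UTR end of OSGIN2 lies within the span of NBN, whose CDS level change was -0.39. CCDC90B lies 2982 bases beyond ANKRD42, with a CDS level 0.25 higher. The call of ASTN2 was lost without Pro_RNA 1, Pro_RNA 2, Sen_RNA 2 or Sen_RNA 3, and that of FZD4 without Sen_RNA 2. Both were also lost in DESeq2, as were those of IQCK, OSGIN2 and TVP23C-CDRT4.

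**Figure D3:**
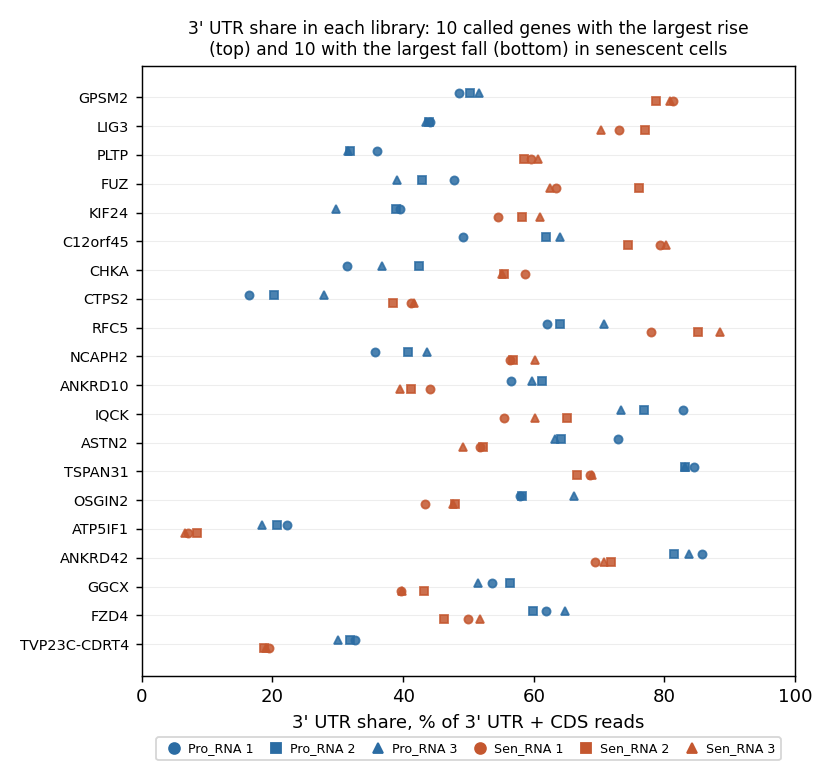
3′ UTR share (percent of 3′ UTR + CDS reads) in each of 6 RNA-seq libraries for the 10 changed genes with the largest rise, at the top, and the 10 with the largest fall, at the bottom. Each symbol is a library, blue for proliferating and red for senescent, and in each of the 20 genes the colours do not overlap.

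Proteins of the cytosolic ribosome rose in share in 11 of the 20 genes that were followed out of 78, and none fell (55%, against 2.19% of all genes tested). The median difference over the 20 was 1.67 percentage points, against 0.321 over all 6456 genes. The 58 other genes had fewer than 100 3′ UTR reads in at least 1 state, and 2 of the 20 among them that could be tested rose too. Many ribosomal protein genes have near-identical pseudogene copies, and their reads can be split by the counting, so these values are uncertain.
RPL37, a protein of the large subunit, had shares of 9.86%, 10.2% and 11.5% against 15.1%, 15.2% and 22.2%, and RPS23, of the small subunit, 7.12%, 7.78% and 8.88% against 14.3%, 13.0% and 16.8%. Both pairs of groups were apart. Their rises were 6.98 ± 2.42 and 6.77 ± 1.24 percentage points.
RPL15, RPL27A, RPS29, RPL23, RPL35A, RPL32, RPS14, RPS3 and RPL10 also rose, by 0.827 (RPS3) to 5.87 points (RPL15), and RPL10 had the smallest adjusted p of all these (2.16e-11 by edgeR). RPL35A went from 1.23%, 1.20% and 1.03% to 2.53%, 2.47% and 3.51%, with its early and late ends shown above. The remaining genes of the list did not pass the test. Their differences ran from -1.10 (RPL39) to 2.73 points (RPL41), among them RPL13A at 41.2%, 39.1% and 39.9% against 41.6%, 43.5% and 37.6%, which overlap. RPL10 went from 1.01%, 1.05% and 1.32% to 6.21%, 6.66% and 7.28%, and shares exon bases with DNASE1L1, whose CDS level was 2.09 higher on the log2 scale. RPL32, the other risen gene of the list that shares exon bases, overlaps CAND2 on the opposite strand, whose CDS level change was -0.76. The 3′ UTR ends of RPS23, RPL15 and RPL35A lie within the spans of ATG10, NKIRAS1 and IQCG. The CDS level of NKIRAS1 was 0.64 higher, and the changes of ATG10 (0.26) and IQCG (0.06) did not pass.
Across the 20, CDS levels fell in 18 and rose in 0 (log2 changes from -0.94 to -0.14 over all 20), against 34.9% of all genes tested in each direction (69.8% in either). The 3′ UTR level rose in 6, fell in 7 and did not pass in 7, against 56.0% of all genes tested that passed in either direction. RPF fell in 12 and rose in 2 of 20, against 26.9% and 27.5% of all genes tested (54.4% in either direction). Over all 78 genes, 3′ UTR reads were 2.07%, 2.14% and 2.15% of 3′ UTR and CDS reads in proliferating and 2.89%, 2.98% and 2.998% in senescent libraries. The count of 11 dropped to 7 without Pro_RNA 2. It was 1 when members overlapping the span of any other gene were left out, which left 2 of the 20 genes. RPL15 and RPS29 lost their calls in 4 of the 6 fits that left out a library, and RPS14 without Pro_RNA 2 or Sen_RNA 2.

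**Figure D4:**
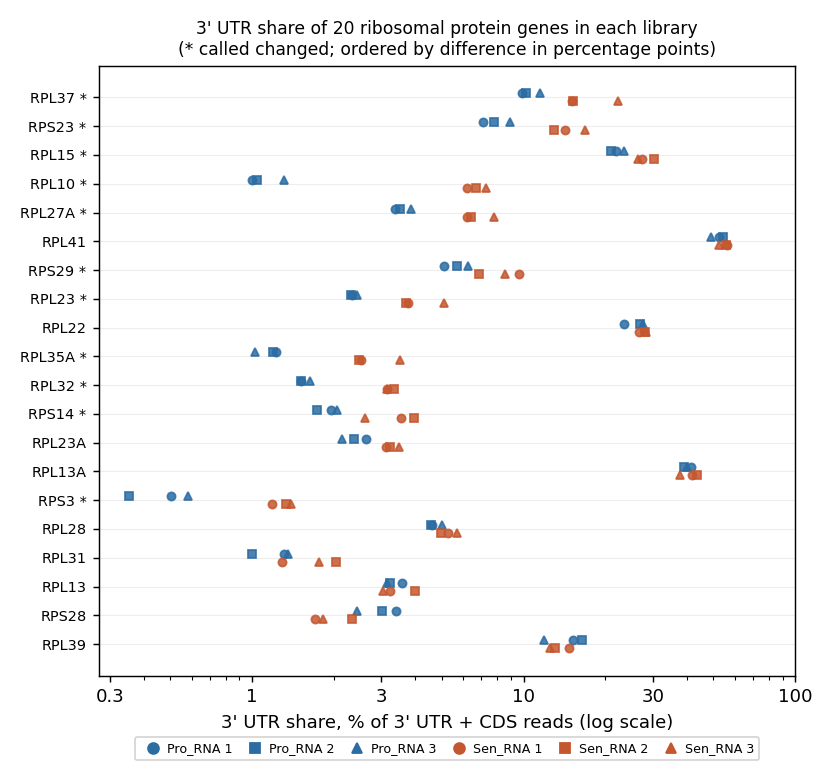
3′ UTR share (percent, log scale) of 20 ribosomal protein genes in each of the 6 RNA-seq libraries, with changed genes marked by an asterisk. Senescent libraries (red) lie to the right of proliferating ones (blue) without overlap in 12 genes, and RPL10, RPL35A and RPS3 start from shares near 1% or less.

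Factors of cleavage and polyadenylation, which choose the ends, were followed in 10 of 21 and none changed its share (0 of 10 at an unadjusted p under 0.05 in edgeR, and 0 by the adjusted test in DESeq2 and in limma), against 2.19% of all genes tested, so 0 of 10 is near the background. Their CDS level fell in all 10, where 34.9% of all genes tested fell. NUDT21, a factor known to favour late ends and named after its values were seen, had shares of 56.5%, 58.7% and 67.3% against 59.0%, 61.3% and 60.9%, which overlap. EIF2S1, a subunit of the initiation factor eIF2 from the list of genes known for alternative ends, rose by 8.88 ± 2.19 points, from 38.4%, 36.95% and 41.5% to 44.4%, 49.4% and 49.8%, and lost its call in 4 of the 6 fits that left out a library.
RNA-binding proteins of mRNA ends and stability changed in 0 of 28 (2 at an unadjusted p under 0.05 in edgeR), the microRNA pathway in 0 of 12 (0 unadjusted), proliferation genes in 0 of 13 (2 unadjusted) and lysosomal genes in 0 of 22 (0 unadjusted), and DESeq2 and limma also called 0 in each of these lists. With 2.19% of all genes tested changed, counts of 0 in lists of this size are near the background. In each of the SASP, matrix, cell cycle and HMG lists 1 gene changed, which is 3.45%, 3.33%, 8.33% and 14.3% of the genes followed, against the same 2.19%, and a single gene in lists this short is no result about the list. In the SASP list (secreted factors of senescence, 29 genes followed) it was IGFBP7, whose share fell from 3.44%, 2.40% and 3.75% to 1.21%, 1.82% and 1.34%. Its CDS level was 3.03 higher and its 3′ UTR level 1.79 higher on the log2 scale. The 3′ UTR of IGFBP7 shares exon bases with POLR2B on the opposite strand, whose CDS level change was -0.52. In the matrix list (30 genes) the changed gene was COL1A1, a chain of type I collagen, with a rise of 1.95 ± 0.541 points. The call of COL1A1 was lost in 4 of the 6 fits that left out a library. In the cell cycle list (12 genes) the changed gene was CDK4.
Among the HMG chromatin proteins, 1 of 7 changed. HMGB3 rose by 13.0 ± 3.19 points (adjusted p = 0.0488 by edgeR), with shares of 48.8%, 49.6% and 46.8% against 58.5%, 58.2% and 67.6%, and lost its call without Pro_RNA 2 or Sen_RNA 3 and in DESeq2. HMGB1 had shares of 29.0%, 30.6% and 38.3% against 32.2%, 35.6% and 38.6%, which overlap, and the difference of 2.82 ± 3.41 points did not pass (adjusted p = 0.917 by edgeR). Its CDS and 3′ UTR levels both fell, by 1.39 and 1.31 on the log2 scale, and its RPF fell by 1.54.

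Of 127 genes whose share rose, the CDS level was lower in 83 and higher in 15, where 34.9% of all genes tested passed in each direction, and the 3′ UTR level was higher in 75 and lower in 15, where 27.6% and 28.4% passed. Of the 30 genes whose share fell, the CDS level was higher in 20 and lower in 4, and the 3′ UTR level was lower in 18 and higher in 2. The share is built from both levels in the same libraries, so these counts are not independent of the call.
In Ribo-seq, 106 of the 127 could be tested, with RPF lower in 52 and higher in 13 (26.9% and 27.5% of all genes tested). RPF was tested in 19 of the 30, with 10 higher and 3 lower. Across all members tested, 1607 of 5250 were higher and 1175 lower, and this sum of 2782 was 1769 without Sen_RPF 1, 756 in DESeq2 and 1563 with the replicate number as a block (ribosome footprint change).
CDS and 3′ UTR levels moved in opposite directions in 50 of 6456 genes (0.774%, against 0.777% of all genes tested), 34 with CDS lower and 3′ UTR higher. Of the 50, 39 had a changed share and 22 share exon bases with another gene. SRFBP1, a partner of serum response factor, had a CDS level change of -0.52 and a 3′ UTR level change of 0.96, with shares of 86.5%, 86.1% and 84.3% against 95.5%, 94.3% and 94.5%. The count of 50 fell to 29 without Pro_RNA 2, 31 without Sen_RNA 1 and 33 without Sen_RNA 3.

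**Figure D5:**
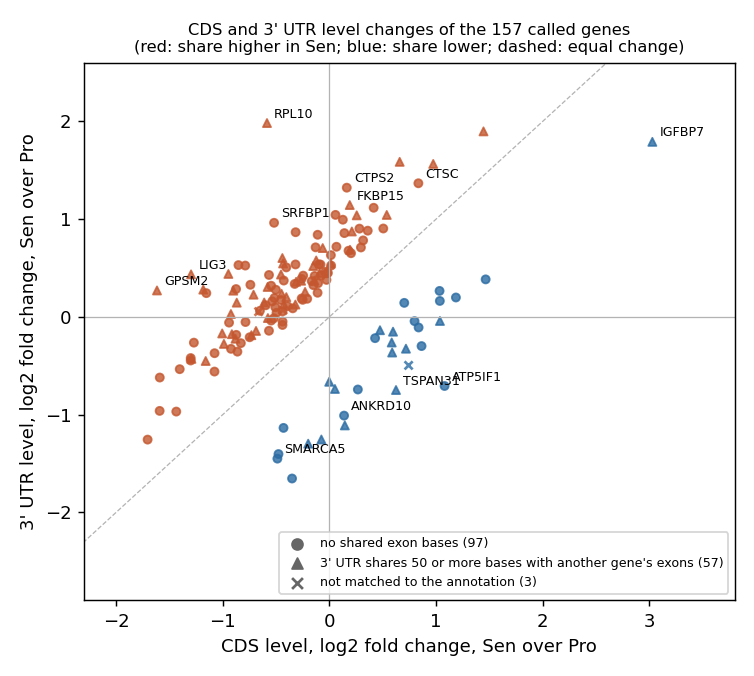
Log2 fold changes (Sen over Pro) of the CDS level, on the x axis, and of the 3′ UTR level, on the y axis, for the 157 changed genes, with red for a risen share and blue for a fallen one, and triangles for genes sharing 50 or more bases with exons of another gene. RPL10 lies highest on the left with a CDS change of -0.59 and a 3′ UTR change of 1.98, and the 30 blue points lie below the diagonal.

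The genes were also split, after the data were seen, by whether the annotated 3′ UTR overlaps exons of another protein-coding gene. Of 864 with at least 50 shared bases, 57 changed (6.60%, 44 higher and 13 lower), against 97 of 5552 without (1.75%, 81 higher and 16 lower). Of the 69 changes of at least 10 points, 35 were in the first group and 34 in the second. The share of changed genes was 7.09% of 719 with overlap on the opposite strand and 4.14% of 145 on the same strand. Leaving out Pro_RNA 2 brought the 57 to 30.
In the 42 with a risen share whose overlapping neighbour was tested, the neighbour's CDS level was higher in 30 and lower in 3, and in the 12 with a fallen share it was higher in 0 and lower in 9. Over all 673 overlapping pairs tested it was higher in 216 and lower in 228. The strand rule of the counting is not known, and without it reads of a gene and its opposite-strand partner cannot be told apart. FKBP15, chosen after its values were seen, had shares of 23.8%, 24.5% and 19.0% against 37.1%, 39.95% and 35.8%, and its partner SLC31A2 (a copper transporter) was 2.13 higher on the log2 scale. MOV10, an RNA helicase chosen in the same way, had a mean share of 83.4% in proliferating and 93.1% in senescent cells, although its 3′ UTR takes only 7.24% of its annotated 3′ UTR and CDS bases. Its neighbour RHOC lies 381 bases beyond it and was 0.60 higher on the log2 scale.

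Further changed genes that share no exon bases with another protein-coding gene were named after their values were seen. CTSC, a lysosomal protease that activates serine proteases, had shares of 22.8%, 22.0% and 23.9% against 32.1%, 31.1% and 31.6%, with CDS and 3′ UTR levels 0.83 and 1.37 higher. CCNH, a cyclin of the CDK-activating kinase, had 34.3%, 40.7% and 42.9% against 56.2%, 54.8% and 57.1%.
SMARCA5, the ATPase of ISWI chromatin remodelling, showed 17.9%, 19.4% and 20.5% against 12.2%, 12.9% and 9.62%. TRMT5, a tRNA methyltransferase, showed 88.9%, 88.2% and 86.4% against 79.1%, 75.7% and 73.7%, a fall of its 3′ UTR level by 1.65 against 0.35 for its CDS. EIF3F (a subunit of eIF3) and RSL1D1 (a nucleolar factor) rose by 4.54 and 8.51 points, with shares that did not overlap. H2AFV, a histone H2A variant, went from 57.1%, 57.9% and 61.1% to 70.4%, 74.7% and 76.1%, with a CDS level change of -1.30 and a 3′ UTR level change of -0.42. The spans of CCNH and SMARCA5 overlap 2 other annotated genes each, that of TRMT5 overlaps 4, and those of CTSC and EIF3F overlap 1 each. For RSL1D1 and H2AFV the number was 0. Some of these genes have a near neighbour downstream. RASA1 lies 1486 bases beyond CCNH, with a CDS level 0.72 higher. PPIA lies 2227 bases beyond H2AFV and MNAT1 1476 bases beyond TRMT5, and their CDS level changes of 0.06 and -0.09 did not pass.

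The median 3′ UTR was 2340 bases in genes with a risen share and 2225 in those with a fallen one, against 1945.5 over all members, and the median CDS was 1182 and 1296 bases against 1386. Lengths and ends here are those of GENCODE v44, which may differ from the annotation that was used to count the reads. With members ranked by 3′ UTR length and split into 4 groups of like size, from shortest to longest, 2.24%, 2.06%, 2.12% and 3.18% changed, and the median difference was 0.141, 0.242, 0.323 and 0.805 points. The shortest group began at an annotated length of 0 bases, although every member had at least 100 3′ UTR reads in each state. At least 2 annotated ends at least 200 bases apart were held by 52% of genes with a risen share, 37.9% of those with a fallen one and 49.5% of all members. A value that is not a whole number of 3′ UTR reads in at least 1 library was found in 58.0% of changed genes against 38.0% of all members. Keeping the fractions in place of rounding left the same 157 genes changed, 127 higher and 30 lower.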

How the data were processed

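RNA-seq and Ribo-seq libraries (12 samples in 4 groups of 3) were grouped by the sample labels. Per gene symbol, the authors deposited expected counts of reads in the 5′ UTR, CDS, 3′ UTR and other classes, unscaled (7.25% of RNA-seq values were not whole). The submitters' processing notes name cutadapt 1.18, Bowtie 1.0.1, SAMtools 1.8 and DESeq2 1.22.2, without roles. Aligner settings, genome build, annotation, strand rule and treatment of multiply placed reads are not given in the sources used here.

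Tests had been planned for plain counts, so values were rounded for them. The 3′ UTR to CDS ratio was tested with edgeR 4.0.16 (R 4.3.3) in 12 columns (2 regions of 6 RNA-seq libraries), with library as a block and a region by state term, for 11553 genes with at least 10 reads in each region. CDS, 3′ UTR and RPF (CDS reads of Ribo-seq) levels were tested in edgeR with TMM factors after filterByExpr. The adjusted p threshold of 0.15 is the false discovery rate of the study's methods. DESeq2 1.42.0 and limma 3.58.1 were alternatives, as were other filters, scalings and left-out libraries. The scripts were tested on simulated counts. Library values were compared by exact permutation (SciPy 1.17.1). Errors are SD over 3 libraries, or SE of the difference of 2 such means. P-values measure only the spread between these samples, which may be technical.

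Annotation came from GENCODE v44 on GRCh37, matched by symbol or RefSeq synonym for 6416 of 6456 members. Shared exon bases were counted only against exons of other protein-coding genes. The members and lists were chosen with earlier results of these data known. Named genes were HMGB1, the 10 highest and 10 lowest differences among changed genes whose libraries did not overlap, up to 3 changed genes per list, the 5 largest opposite changes, the extremes of the mean share and the genes nearest to the 100-read limit. Others are marked as chosen after their values were seen. Some results of the fixed lists are not reported here.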

Additional observations from a re-analysis of the deposited data

How the results depend on the processing

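Of the 157 genes with a changed share, 97 passed at an adjusted p under 0.05, 66 in DESeq2, 100 were left without genes sharing 50 or more exon bases with another gene (an alternative chosen after seeing the data), 69 with at least 10 percentage points, and 22 without genes overlapping another gene's span, where only 1644 genes were tested. Leaving out a library gave 67 to 157, with 5543 to 5991 genes followed. With the replicate number as a block, 195 genes changed, and the calls of the ribosome footprint change went from 2782 to 1563; no other count moved by over 1.5 times. The ratio deviations of same-numbered libraries correlated at 0.239, -0.150 and 0.250, and Pro_RNA 2 correlated best with Sen_RNA 1, so the numbers were not taken to pair the samples. RPF calls were 756 in DESeq2 and 1769 to 3176 when libraries were left out, the upper value without the 2 shallowest Ribo-seq libraries, which was added after seeing the data. Opposite CDS and 3′ UTR changes numbered 50 and became 23 at 0.05, 26 in DESeq2, 28 without shared exons and 29 to 46 without a library. In 66 genes the call held in all 6 fits without a library and in 61 under every alternative fit. Among changes that did not pass, the median 3' UTR share per library differed by -0.539 points without Sen_RNA 2 against 0.529 with all libraries, and single genes turned in sign: the LMBR1L share change (log2 ratio) was -0.063 with a factor per region, -0.11 at equal depth, -0.0057 without the length trend and -0.12 to 0.13 without a library, the CEP97 share change -0.14 to 0.091 and the NUDT21 share change -0.16 to 0.17. The causes were not tested. The median SE of a difference was 3.18 points in the 1615 genes with the fewest reads and 1.38 points in the 1614 with the most, which limits what could be detected in the former.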
